A study of Mus musculus with 36 samples.

Results

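The genes described here are the mouse zinc finger genes whose symbol is exactly Zfp and a number, with no suffix, from Zfp600 to Zfp999. The rule used the symbol alone and no measured value. It found 170 genes in the 3 deposited count tables together, of which 167 stood among 25239 genes in the P-body table, 167 among 25229 in the polysome table and 144 among 48440 in the table of Ago2 KO cells. The symbols mark a naming series, not a single family. Most of them encode KRAB zinc finger proteins, transcription factors with an N-terminal KRAB domain and a row of C2H2 fingers that reads a DNA sequence. The KRAB domain binds TRIM28 (KAP1), which brings the histone H3 lysine 9 methyltransferase SETDB1 and HP1 proteins to the site. This pathway is known above all for silencing endogenous retroviruses and other transposable elements in early embryos and embryonic stem (ES) cells. P-bodies are cytoplasmic RNA and protein condensates that hold mRNAs which are largely not being translated, and the helicase DDX6 is needed to form them.

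The study sorted P-bodies as fluorescent particles from mouse cells that carried a GFP-LSM14A fusion, delivered by lentivirus, and sequenced their RNA beside that of the cytoplasm before sorting. It did so in wild-type naive ES cells (line v6.5), in primed ES cells made from them, and in mouse embryonic fibroblasts (MEFs). The MEFs, from day 13.5 embryos, carried a doxycycline-inducible Oct4-Klf4-Sox2-Myc cassette at Col1a1, M2-rtTA at Rosa26 and a Pou5f1-EGFP reporter, and were profiled before reprogramming and on its day 3, under a control shRNA or one against Nudt21. Ago2 KO naive ES cells were a CRISPR line grown from 1 cell. In a further experiment naive ES cells whose Ddx6 alleles both encode DDX6 fused to the FKBP12 F36V degron, again from single-cell clones with GFP-LSM14A, were left untreated (control) or given dTAG-13, which degrades DDX6 (degron), and polysome-bound and total RNA were sequenced. The 36 libraries formed 16 groups, of 2 libraries for P-bodies and cytoplasm and of 3 for polysomes and total RNA. The comparisons address which of these transcripts are held in P-bodies in each cell type and how far they are bound to ribosomes.

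The libraries held 6769731 to 31185874 reads in the P-body table, 13308782 to 29362195 in the polysome table and 15624401 to 17486268 in the Ago2 KO table. Markers of pluripotent cells summed to between 3392 and 6514 CPM (counts scaled to 1000000 reads a library) in the naive libraries and to 0.348 to 1.03 in the unreprogrammed MEF libraries, as labelled. Nudt21 stood at 5.01 to 5.96 CPM with its shRNA and at 89.1 to 115 CPM with the control shRNA. Ago2 had 2.57 to 4.52 CPM in the Ago2 KO libraries. The Ddx6 transcript does not test the degron, which acts on the protein. The MEF P-body libraries stood apart in a marker list. All 5 lung epithelium markers had reads there, with a sum of 5.96 CPM in library 1 and 87.9 CPM in library 2, against at most 2.76 CPM in any other P-body or cytoplasm library and 0 and 0.0332 CPM in MEF cytoplasm. A list of 8 nuclear RNAs summed to 4764 and 6797 CPM in the MEF P-body libraries against 981 and 1063 CPM in MEF cytoplasm, and to 551 and 528 CPM in naive P-bodies against 204 and 281 CPM in naive cytoplasm. In primed cells the order was the other way round, with 686 and 632 CPM in P-bodies against 1105 and 879 CPM in cytoplasm. The part of these differences in the results below was not tested.

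The genes fell into 2 main classes by the proteins they encode. A short amino acid pattern of the KRAB domain was found in 108 of the 165 members with an annotated coding sequence and was missing from 57. A further 5 members had none. Members with the KRAB signature had a median of 11.5 C2H2 fingers and a median transcript GC content of 40.1%, and those without it had a median of 7 fingers and 50.8% GC. Neighbouring fingers are joined by a conserved linker, and its coding DNA recurs in many of these genes. The motif ACNGGAGAGAAACC is the consensus of the 780 in-frame linkers found in the coding sequences of the members, with N where no base reached 70%. It stood on the sense strand in the transcripts of 86 of 168 annotated members (51.2%), against 404 of 55341 annotated genes (0.73%). Among the lower numbered genes Zfp1 to Zfp599, 73 of 200 (36.5%) held it, so it is not particular to the members. The motif was built from the members' own linkers, so part of their excess was fixed in advance. It was found in 78 of 108 members with the KRAB signature (72.2%) and in 7 of 57 without it (12.3%). On the opposite strand 0 members and 8 genes held it. The 6 stretches below show the linker coding sequence in members on which the results turn, with the motif in capitals.
Zfp712: gaactcatACTGGAGAGAAACCctacaaat
Zfp708: gaattcatACTGGAGAGAAACCatataagt
Zfp932: gaaatcatACTGGAGAGAAACCctacgaag
Zfp937: aaattcatACTGGAGAGAAACCctatgaat
Zfp941: ggattcacACTGGAGAGAAACCtttcaaat
Zfp948: gtcttcatACTGGAGAGAAACCttacaaat
They lie, in GRCm38 with GENCODE M21 transcripts, at chr13:67042047-67042076 (minus strand, Zfp712, exon 4 of 4), chr13:67071091-67071120 (minus, Zfp708, exon 4 of 4), chr5:110008640-110008669 (plus, Zfp932, exon 4 of 4), chr2:150238335-150238364 (plus, Zfp937, exon 4 of 4), chr7:140812088-140812117 (minus, Zfp941, exon 3 of 4) and chr17:21587332-21587361 (plus, Zfp948, exon 6 of 6). Each is coding sequence. The coding sequence of Zfp712 held 5 copies of the motif, as did that of Zfp708, and Zfp932 and Zfp937 held 10 each, Zfp948 3 and Zfp941 1. Zfp706, Zfp622 and Zfp638, which carry no KRAB signature and appear below as contrasts, held 0 in their transcripts.

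Added together, the members took a far larger share of the reads in ES cell P-bodies than in ES cell cytoplasm. In naive cells they summed to 16381 ± 199 CPM in P-bodies and to 3736 ± 788 CPM in cytoplasm (mean ± SD, n = 2 each), a ratio of 4.38. In primed cells the sums were 11272 ± 303 and 4808 ± 149 CPM, a ratio of 2.34. In Ago2 KO ES cells they were 4642 ± 144 and 1852 ± 119 CPM (2.51), from a table with fewer members that was counted separately, so that its levels are not set against those of the other table. In MEFs the fractions lay close together, with 5051 ± 120 CPM for P-bodies and 4441 ± 260 CPM for cytoplasm (1.14). At day 3 of reprogramming the ratios were 1.32 with the control shRNA and 1.19 with the Nudt21 shRNA. The polysome to total RNA ratio was 1.19 in control and 1.28 in degron ES cells. The lower numbered genes Zfp1 to Zfp599, counted in the same way, had ratios of 2.87 in naive cells, 1.86 in primed cells, 0.904 in MEFs and 1.98 in Ago2 KO cells. In bulk fractions such shares are relative: more RNA of these genes and less RNA of other genes per P-body cannot be told apart.

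**Figure D1:**
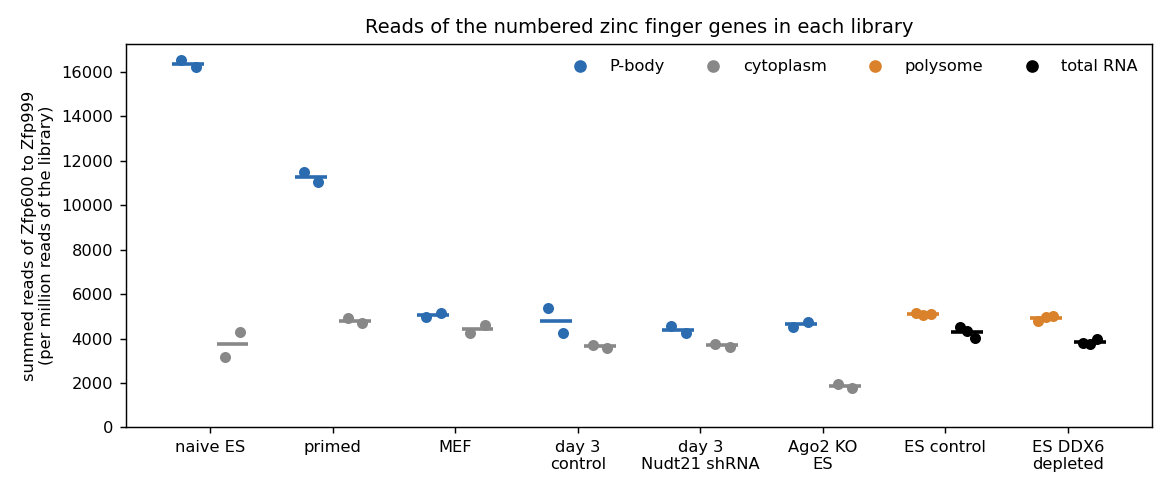
Summed CPM of the members in each library (vertical axis, linear) for the 8 cell types or treatments, with 1 point per library and a bar at the group mean. The naive P-body libraries stood at 16381 ± 199 CPM and the naive cytoplasm libraries at 3736 ± 788 CPM, while the MEF groups lay at 5051 ± 120 and 4441 ± 260 CPM.

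In naive ES cells most of the genes were enriched in P-bodies. By edgeR's quasi-likelihood test with an adjusted p under 0.05, 117 of the 159 members with enough reads (10 summed over the 4 libraries) were higher in P-bodies and 2 were lower, with a median log2 fold change of 2.18. Of all 15665 genes tested, 38% were called, 22.5% higher and 15.5% lower, with a median of -0.06. The enrichment followed the KRAB signature: 93 of 104 members that carried it were higher and 0 lower by edgeR and by DESeq2 (median 2.60; 2 below 0 had an unadjusted p under 0.05), and 23 of 52 members without it were higher and 2 lower (median 0.34). Zfp1 to Zfp599 lay between, with 119 of 192 higher, 10 lower and a median of 1.19.

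The marker gene of the series, Zfp712 (20 fingers, chr13:67038596-67061170, minus strand), had 39.0 and 40.3 CPM in the naive P-body libraries and 1.72 and 2.63 CPM in cytoplasm. CPM values from here on are scaled by edgeR's TMM factors within each comparison. Both P-body libraries were far above both cytoplasm libraries, with a log2 fold change of 4.18 ± 0.23 (SE, here and below) and an adjusted p of 0.000388 in edgeR. Zfp941, a KRAB zinc finger gene, had 1761 CPM in each P-body library and 18.9 and 67.5 CPM in cytoplasm, a change of 5.35 ± 0.63. It was the most abundant member in naive P-bodies also per transcript length, at 423 CPM per kilobase. Zfp937 had 338 and 327 CPM against 7.68 and 16.4 CPM (4.78 ± 0.36). For both genes the 2 cytoplasm libraries differed from each other by over 2 times, and the P-body libraries hardly at all. Among members known to act on retroelements, Zfp809, which silences murine leukaemia virus and related endogenous retroviruses, rose by 1.69 ± 0.35, with 163 and 137 CPM in P-bodies and 29.6 and 63.2 CPM in cytoplasm. Zfp932, which represses endogenous retroviruses, rose by 3.19 ± 0.22, and Zfp708, which binds a retrotransposon family, by 3.28 ± 0.28.

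The 23 enriched members without the KRAB signature included genes rich in the linker motif, such as Zfp763 with 7 copies and Zfp952 with 4, beside those that follow. Zfp644, a partner of the histone methyltransferases G9a and GLP, had 240 and 239 CPM in naive P-bodies and 31.9 and 34.0 CPM in cytoplasm (2.86 ± 0.10). Zfp638, a protein that recruits the HUSH silencing complex to unintegrated retroviral DNA, had 475 and 425 CPM against 92.7 and 108 CPM (2.17 ± 0.13). Neither pair of groups overlapped. Zfp827 (2.60 ± 0.21), Zfp830 (1.58 ± 0.13) and Zfp609 (1.14 ± 0.18) were enriched as well. By contrast Zfp706, which encodes a small single-finger protein, had 254 and 262 CPM in P-bodies and 259 and 253 CPM in cytoplasm, groups that overlapped (0.01 ± 0.09). Zfp622, a factor of 60S ribosome assembly, had 63.1 and 60.2 CPM against 71.9 and 70.1 CPM (-0.20 ± 0.10, adjusted p = 0.18 in edgeR). The 2 members lower in naive P-bodies were Zfp628 and Zfp775, and DESeq2 called 0 lower, with 6 below 0 at an unadjusted p under 0.05 in edgeR. For Zfp775 the values were 18.2 and 21.2 CPM against 32.8 and 26.9 CPM (-0.60 ± 0.17).

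**Figure D2:**
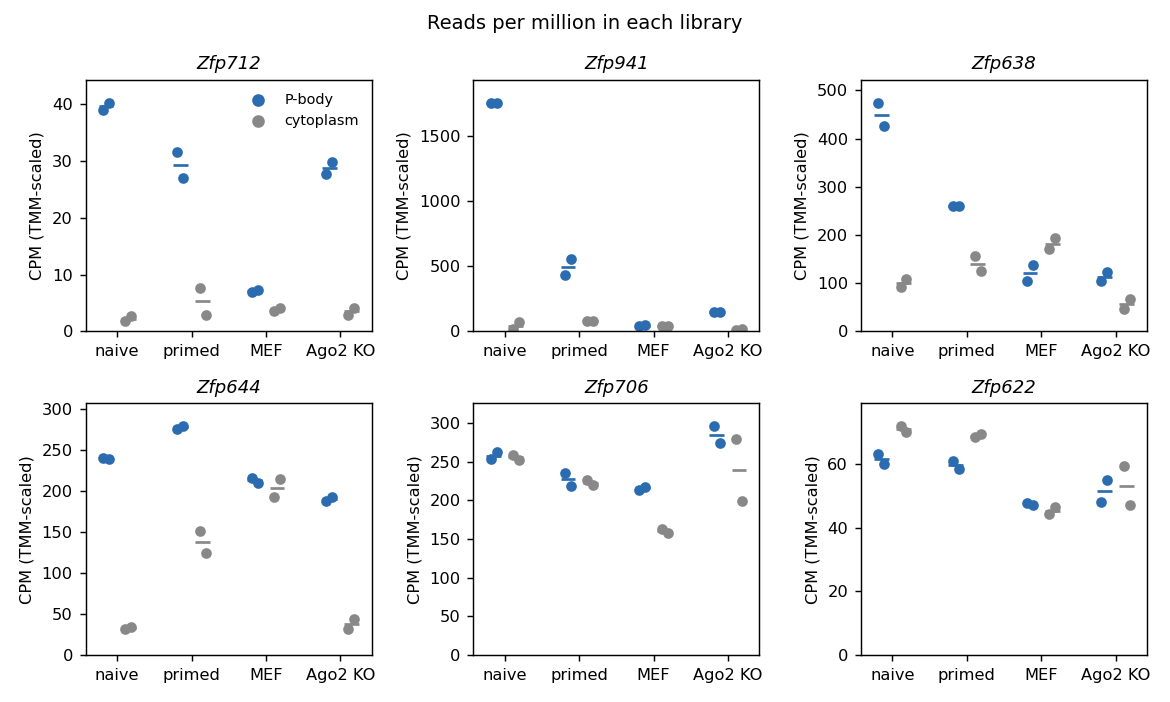
TMM-scaled CPM (vertical axis, linear) of 6 members in each P-body and cytoplasm library of naive, primed, MEF and Ago2 KO cells, with 1 point per library and a bar at the mean of 2. Zfp712 stood at 39.0 and 40.3 CPM in naive P-bodies and at 1.72 and 2.63 CPM in cytoplasm, Zfp638 was higher in P-bodies of ES cells and lower in those of MEFs, and Zfp706 had overlapping values in naive cells.

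Primed ES cells gave nearly the same number of enriched members with smaller differences. Of 162 tested, 118 were higher in P-bodies and 6 lower, with a median log2 fold change of 1.12 (all genes tested: 26.6% higher, 24.3% lower, median 0.00). With the KRAB signature 92 of 106 were higher and 1 lower, and without it 25 of 53 were higher and 5 lower. The naive and primed calls rest on separate libraries, and 106 genes were called higher in both, which is 90.6% of the naive list and 89.8% of the primed list. Of the members tested, 73.6% were enriched in naive and 72.8% in primed cells. The same overlap over all genes was not computed, so it is not read as a trait of the members. Zfp712 had 31.6 and 27.0 CPM in primed P-bodies and 7.70 and 2.84 CPM in cytoplasm (2.52 ± 0.26). Zfp941 had 430 and 559 CPM against 80.6 and 77.8 CPM (2.64 ± 0.11), and Zfp948 had 405 and 400 CPM against 71.9 and 63.6 CPM (2.57 ± 0.07). In each of the 3 genes both P-body libraries lay above both cytoplasm libraries. Zfp608, a paralogue of the cohesin loader cofactor Zfp609, was well expressed in primed cells, with 59.5 and 70.4 CPM in P-bodies and 17.3 and 15.3 CPM in cytoplasm (2.0 ± 0.12). In naive cells it had 32 reads in P-bodies and 1 read in cytoplasm, summed over the libraries, a depth-adjusted ratio of 34.4 with an exact binomial counting interval (95%) of 5.75 to 1402. At the other end Zfp692 had 30.2 and 25.1 CPM in primed P-bodies and 64.1 and 65.2 CPM in cytoplasm (-1.22 ± 0.11), and Zfp653 had 6.50 and 8.99 against 16 and 11.4 CPM (-0.81 ± 0.22).

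The difference between the naive and primed enrichments was tested as an interaction. It was called for 71 of 162 members, 66 with the larger enrichment in naive cells (13.8% of all genes) and 5 with the larger one in primed cells (11.3%), with a median difference of 0.70 on the log2 scale. Members with the KRAB signature made up 54 of the 66. Zfp760, a KRAB zinc finger gene, had 122 and 110 CPM in naive and 81.3 and 76.9 CPM in primed P-bodies, beside 5.38 and 13 CPM in naive and 41.8 and 38.2 CPM in primed cytoplasm, a difference of 2.68 ± 0.38. The gap between the cell types was thus wider in cytoplasm than in P-bodies. Zfp771 went the other way (-1.26 ± 0.34). For Zfp712 the difference of 1.54 ± 0.51 had an adjusted p of 0.0547 in edgeR and was not called. Without naive P-body library 1 the number of members called fell from 71 to 43, and without library 2 to 45.

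In MEFs the genes split into enriched and depleted ones. Of 156 tested, 45 were higher in P-bodies and 32 lower, with a median log2 fold change of 0.09, against 55.2% called (26.6% higher and 28.7% lower) among all genes tested and a median of 0.03. With the KRAB signature 33 of 102 were higher and 13 lower, and without it 12 of 51 were higher and 18 lower. The 77 calls fell to 40 without MEF cytoplasm library 1 and to 47 without library 2, and without P-body library 2, the one with the lung epithelium markers, they were 90. Zfp712 had 7 and 7.25 CPM in MEF P-bodies and 3.50 and 4.03 CPM in cytoplasm (0.92 ± 0.20), so that the groups did not overlap but lay close together. Zfp697 (9.94 and 8.86 against 2.30 and 2.56 CPM, 1.95 ± 0.20) and Zfp688 (24.4 and 23.8 against 8.69 and 9.61 CPM, 1.4 ± 0.14) were the 2 most enriched of the members with a mean of at least 5 CPM. Zfp646 (8.37 and 8.59 against 33.8 and 32.7 CPM, -1.97 ± 0.12) and Zfp768 (7.07 and 6.33 against 20.7 and 18.2 CPM, -1.54 ± 0.16) were the most depleted. Zfp941, so abundant in naive P-bodies, had 37.2 and 47.0 CPM in MEF P-bodies and 39.2 and 37.6 CPM in cytoplasm.

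Some naive-enriched members were enriched in MEFs as well and others were depleted there. Of the 114 naive-enriched members tested in MEFs, 36 (31.6%) were enriched there too, near the 26.6% of all genes tested, and 19 (16.7%) were depleted, against 28.7% of all genes. Among all 3401 naive-enriched genes tested in MEFs the shares were 26.5% and 35.1%. The 19 included Zfp608, Zfp609, Zfp638, Zfp809 and Zfp827. Zfp638 had 104 and 136 CPM in MEF P-bodies and 171 and 193 CPM in cytoplasm (-0.59 ± 0.13), the reverse of its order in naive cells. The other way round, 6 members were enriched in MEFs and in neither ES cell state, namely Zfp653, Zfp688, Zfp692, Zfp697, Zfp706 and Zfp956. Zfp706 had 214 and 218 CPM in MEF P-bodies against 162 and 158 CPM in cytoplasm (0.43 ± 0.08). Enriched in naive, primed and MEF P-bodies alike were 35 members, among them Zfp708, Zfp712, Zfp830, Zfp932 and Zfp948. The overlaps behind the 6 and the 35 were not computed over all genes, so neither count is read as a trait of the members.

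The interaction between naive ES cells and MEFs, which shares the naive libraries with the previous one, was called for 114 of 161 members. In 102 of them the enrichment was larger in naive cells (21.6% of all genes) and in 12 it was larger in MEFs (19.7%), and the median difference was 1.83. Without MEF P-body library 2 the count was again 114. With the KRAB signature the counts were 77 and 3 of 105, and without it 24 and 9 of 53. Zfp712 was among those with the larger enrichment in naive cells, at 3.08 ± 0.31. Zfp653 had 5.96 and 4.92 CPM in naive P-bodies and 12.3 and 8.95 CPM in naive cytoplasm, beside 9.62 and 11.5 CPM in MEF P-bodies and 5.94 and 3.54 CPM in MEF cytoplasm. In each cell type the fractions did not overlap, in opposite orders, and the difference was -2.13 ± 0.41.

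**Figure D3:**
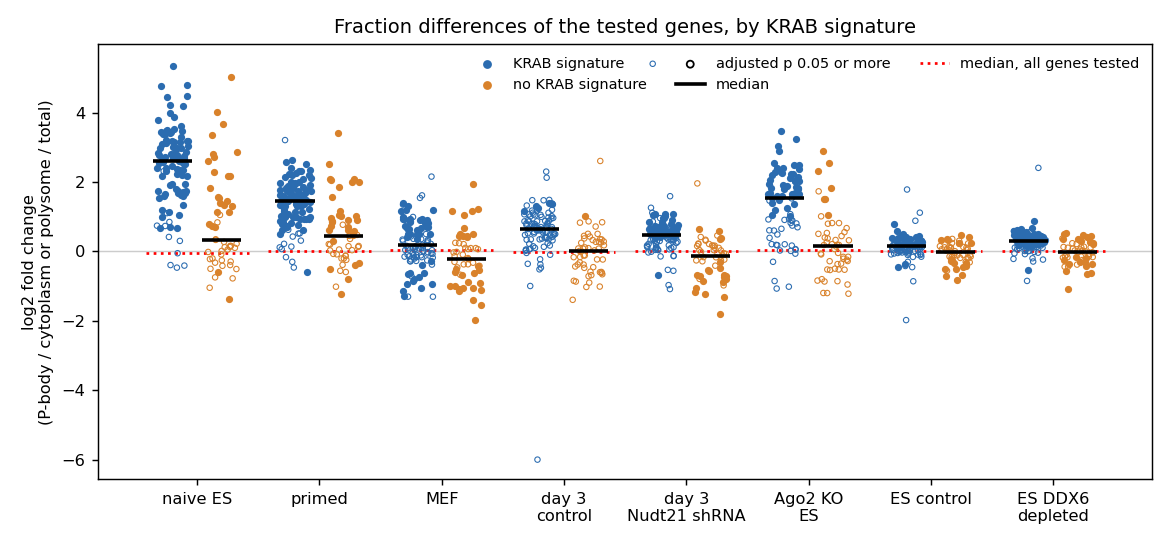
Log2 fold change of each tested member with a coding sequence in the 8 fraction comparisons, split by KRAB signature (left and right of each position), with filled points for an adjusted p under 0.05, black bars at the medians and red dotted lines at the median of all genes tested. In naive cells the medians were 2.60 with the signature and 0.34 without it, and in MEFs they were 0.17 and -0.22.

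At day 3 of reprogramming few members were called with the control shRNA. Of 158 tested, 6 were higher in P-bodies and 0 lower by edgeR (all genes tested: 0.36% higher and 0.834% lower), with a median log2 fold change of 0.47. An unadjusted p under 0.05 was reached by 72 of the 158, and DESeq2 called 44 higher and 5 lower. The 6 were Zfp820, Zfp938, Zfp952, Zfp958, Zfp960 and Zfp991, with adjusted p of 0.0488 to 0.0497. Zfp960 had 88.7 and 71.1 CPM against 31.1 and 31.3 CPM (1.36 ± 0.16), and Zfp991 had 19.4 and 25 CPM against 8.44 and 8.31 CPM (1.41 ± 0.21). Zfp712, at 5.91 and 9.13 CPM in P-bodies and 2.23 and 3.18 CPM in cytoplasm, missed the threshold (1.47 ± 0.36, adjusted p = 0.0946 in edgeR). The 2 day 3 control P-body libraries differed from each other more than most pairs, and without either one 93 or 94 members were called; without cytoplasm library 2 the count was 2. A library left alone in its group was there assumed to vary like the other group.

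With the Nudt21 shRNA 47 of 158 members were higher in day 3 P-bodies and 18 lower (all genes tested: 9% higher and 12.8% lower), and the KRAB signature again divided them, with 43 of 103 higher and 1 lower against 4 of 52 higher and 17 lower without it. Zfp958 had 136 and 108 CPM in P-bodies against 60.0 and 55.9 CPM (1.07 ± 0.12), and Zfp951 had 37.1 and 25.3 against 16 and 13.7 CPM (1.07 ± 0.18). Zfp609 was depleted, at 10.3 and 12.3 CPM against 27.3 and 29.4 CPM (-1.32 ± 0.15), and so was Zfp651, at 2.89 and 3.59 against 8.28 and 6.88 CPM (-1.23 ± 0.22). The 65 calls fell to 36 without Nudt21 cytoplasm library 1 and to 18 without library 2. The test of the difference between the 2 shRNAs called 0 of 161 members by edgeR (0.0117% of all genes, either direction), 9 had an unadjusted p under 0.05, and DESeq2 called 1. The median difference was -0.15. Leaving out day 3 control P-body library 1 gave 21 calls and leaving out library 2 gave 1.

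Day 3 control cells against unreprogrammed MEFs gave 26 of 160 members with a different enrichment, 23 larger at day 3 (9.52% of all genes) and 3 larger in MEFs (5.08%). Zfp976 had 25.8 and 26.5 CPM in MEF P-bodies and 52.5 and 61.1 CPM in MEF cytoplasm, beside 36.9 and 20.7 CPM in day 3 P-bodies and 18.2 and 15.2 CPM in day 3 cytoplasm. Its fractions stood in opposite orders at the 2 times and the difference was 1.91 ± 0.33. Zfp688 had 25.3 and 24.7 CPM in MEF P-bodies with 9.39 and 10.3 CPM in cytoplasm, and 27.7 and 28.4 CPM with 23.4 and 24.7 CPM at day 3 (-1.12 ± 0.20). The count of 26 moved with single libraries: it was 10 and 12 without MEF P-body library 1 or 2, 2 and 5 without MEF cytoplasm library 1 or 2, 41 and 65 without day 3 P-body library 1 or 2, and 3 and 0 without day 3 cytoplasm library 1 or 2.

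Ago2 KO naive ES cells also held these transcripts in P-bodies. Of 133 members tested 54 were higher and 0 lower by edgeR (all genes tested: 6.51% called, 5.47% higher and 1.05% lower), with a median log2 fold change of 0.81. Among those below 0, 7 had an unadjusted p under 0.05, and DESeq2 called 3 lower. With the KRAB signature 46 of 77 were higher (median 1.55), and without it 7 of 52 (median 0.16). Among the naive-enriched members, 92 were tested here, and 53 of them (57.6%) were called higher in Ago2 KO cells, and these 53 made up 98.1% of the 54. Since 73.6% of the members tested in naive cells were enriched there, a high share of the 54 was likely. The overlap over all genes was not computed. Zfp941 had 149 and 150 CPM in P-bodies and 13.1 and 14.1 CPM in cytoplasm (3.46 ± 0.26). Zfp948 had 78.4 and 75.2 against 10.4 and 5.76 CPM (3.24 ± 0.32), and Zfp712 had 27.7 and 29.8 against 2.86 and 4.10 CPM (3.05 ± 0.29). All 3 were separated by fraction in both libraries. The 2 Ago2 KO cytoplasm libraries differed from each other more than any other replicate pair (chi-square per degree of freedom of 306, next highest 49.3). The nuclear RNA list summed to 494 and 181 CPM in them against 632 and 669 CPM in P-bodies, and the pluripotent markers to 8705 and 4737 CPM against 11506 and 8873 CPM, and the part of these differences was not tested. Leaving out 1 library gave 40 to 78 called members, the highest count coming without cytoplasm library 1 (64 higher and 14 lower). The wild-type and Ago2 KO enrichments were not tested against each other, since the tables were counted separately.

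In control naive ES cells 31 of 158 members tested were higher in polysomes than in total RNA and 13 lower. The share that was higher was near that of all genes tested (18.8%) and the share that was lower was smaller (24.1% of all genes), with a median log2 fold change of 0.12 against 0.02. With the KRAB signature 22 of 103 were higher and 2 lower, and without it 8 of 52 were higher and 11 lower. Zfp932 had 47.8, 49.0 and 56.3 CPM in polysomes and 40.8, 35.2 and 31.1 CPM in total RNA (0.51 ± 0.09), and Zfp950 had 11, 9.66 and 10.4 against 6.72, 7.30 and 6.66 CPM (0.58 ± 0.12). Zfp638 had 74.3, 68.8 and 83.5 CPM in polysomes and 146, 139 and 117 CPM in total RNA (-0.84 ± 0.09), and Zfp609 had 49.3, 48.4 and 44.8 against 76.8, 82.9 and 75.1 CPM (-0.72 ± 0.07). In these 4 genes no polysome library overlapped with the total RNA libraries. Zfp712, at 4.33, 3.39 and 4.39 CPM against 3.70, 4 and 4.06 CPM, did overlap (0.03 ± 0.16). Both Zfp638, low on polysomes, and Zfp932, high on polysomes, were among the 117 members enriched in naive P-bodies.

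After DDX6 depletion 76 of 159 members were higher in polysomes than in total RNA and 13 lower (all genes tested: 24% higher and 26.8% lower), with a median of 0.25. With the KRAB signature 65 of 104 were higher and 1 lower, and without it 11 of 52 were higher and 12 lower. Within degron cells Zfp810 (8.32, 10.6 and 9.40 against 5.25, 5.75 and 6.81 CPM, 0.66 ± 0.12) and Zfp950 (8.44, 10.3 and 10.7 against 5.98, 5.57 and 7.12 CPM, 0.64 ± 0.12) had the largest polysome to total RNA ratios. This ranking covers called members with a mean of at least 5 CPM and fractions apart. Zfp622 had 40.7, 37.4 and 32.2 CPM in polysomes against 72.8, 84.1 and 79.7 CPM in total RNA (-1.09 ± 0.07), and Zfp687 had 78.9, 78.3 and 75.7 against 121, 122 and 120 CPM (-0.64 ± 0.04). In all 4 genes the fractions were apart in every library. The direction calls of the control and degron cells, which share no library, were common for 30 higher and 11 lower members. How often such calls agree over all genes was not computed, so this overlap is not read as a trait of the members.

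The change of this ratio between degron and control cells was not called for any member. The interaction test by edgeR called 0 of 161 members and 0% of all genes, and DESeq2 called 0 members. An unadjusted p under 0.05 was reached by 22 members, 21 with the larger ratio in degron cells and 1 with the smaller, and by 845 of 16345 genes. The median difference was 0.09 on the log2 scale, and 112 of the 157 members tested in both conditions had the larger ratio in degron cells. In the interaction fit 113 of 161 members (70.2%) lay above 0. The shares were 67.0% for Zfp1 to Zfp599 and 47.7% for all genes tested. The larger number of calls after depletion is therefore not shown, gene by gene, to be a difference between the conditions. For P-body-enriched mRNAs as a set, the paper reports a significant rise in ribosome occupancy after acute DDX6 loss. That is a different measure from the test of single genes used here.

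**Figure D4:**
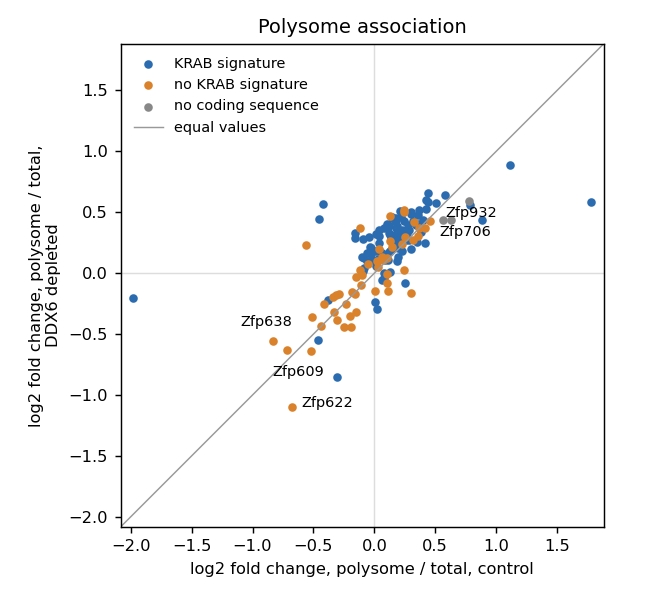
Log2 fold change of polysome over total RNA in control (horizontal axis) and DDX6-depleted ES cells (vertical axis) for 157 members, coloured by KRAB signature, with the line of equal values. Of these, 112 lay above the line, and Zfp622, Zfp638 and Zfp609 were low in both conditions. In the fit of the difference 47.7% of all genes tested lay above 0.

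In total RNA 18 of 157 members were lower in degron than in control cells and 0 were higher by edgeR (all genes tested: 3.31% called, 2.07% lower and 1.24% higher), with a median log2 fold change of -0.12. At an unadjusted p under 0.05 stood 47 members on the lower side and 5 on the higher side, and DESeq2 called 23 lower and 0 higher. All 18 were among the members enriched in naive P-bodies, as were 117 of the 159 members tested there and 174 of the 318 genes (54.7%) lower in degron total RNA, and 16 carried the KRAB signature. The rule for naming picked Zfp967, which had 15.3, 16.8 and 18.3 CPM in control and 5.26, 9.91 and 4.85 CPM in degron cells (-1.33 ± 0.20). The groups did not overlap, but every 75-base window of this transcript occurs in another gene as well, so reads no longer than that cannot be assigned to it with certainty. Zfp987, chosen after its values were seen, had 90.5, 81.1 and 76.7 CPM against 53.7, 57.3 and 63.5 CPM, with 87.4% of its windows shared. The count of 18 rested on single libraries, being 2, 4 and 52 without control library 1, 2 or 3 and 0, 2 and 6 without degron library 1, 2 or 3. Zfp712 was not called (-0.20 ± 0.16).

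Transcript GC content moved with the fraction difference across the members. The Spearman correlation of GC with the log2 fold change, given as a description across genes that share the same libraries, was -0.71 in naive cells (158 members; -0.60 over all genes tested), -0.85 in Ago2 KO cells (132 members; -0.48) and -0.50 in MEFs (all genes -0.08). Within the members with the KRAB signature it was -0.51 in naive and -0.74 in Ago2 KO cells. Divided into 3 groups by GC, 53 of 53 tested members with 33.2 to 39.6% GC were higher in naive P-bodies (median 2.80), 49 of 56 with 39.6 to 46.2% (2.17), and 15 of 49 with 46.3 to 68.7% (0.22). In MEFs the medians of the same groups were 0.50, 0.07 and -0.46. Because GC and the KRAB signature go together in these genes, and GC content can also affect how well a transcript is amplified and sequenced, their parts cannot be told apart here.

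**Figure D5:**
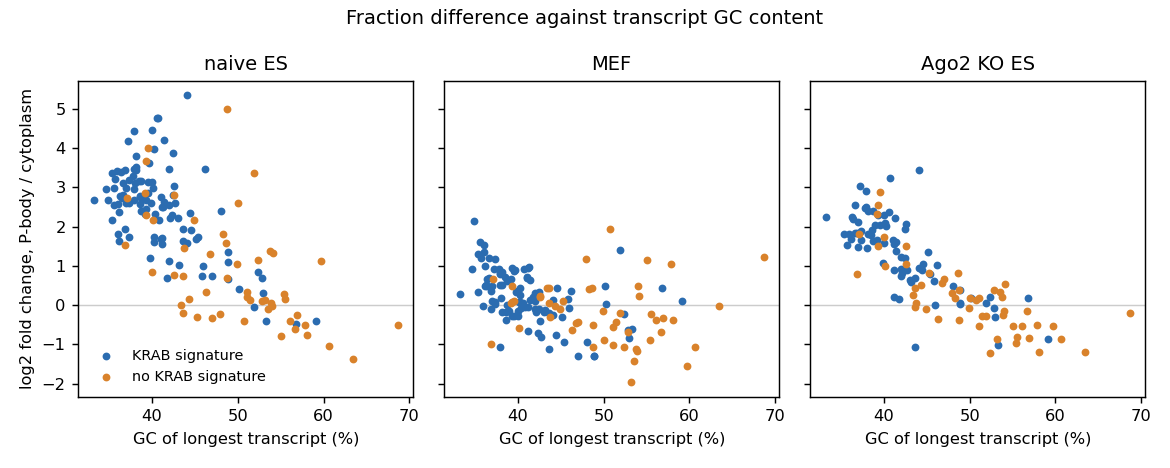
Log2 fold change of P-body over cytoplasm (vertical axis) against the GC content of the longest annotated transcript (horizontal axis, percent) for the members with a coding sequence in naive ES cells, MEFs and Ago2 KO ES cells, coloured by KRAB signature. Members with 33.2 to 39.6% GC had a median of 2.80 in naive cells and 0.50 in MEFs, and those with 46.3 to 68.7% GC had medians of 0.22 and -0.46.

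Many of the genes sit in clusters that arose by tandem duplication, and in several clusters every member tested was higher in naive P-bodies. Of all genes tested 22.5% were higher there, of the members 73.6% and of those with the KRAB signature 89.4%. Runs of higher members are likely at these shares and are not read as a trait of clusters. Taking runs of at least 4 members with gaps of at most 500 kb, the cluster at chr17:21383748-22867134 held 14 members, among them Zfp948 and Zfp760, and all 14 were higher in naive P-bodies (median 3.28). In the cluster at chr13:66669928-67687071 with Zfp712 and Zfp708, all 6 members tested were higher (median 3.22), and all 7 tested in Ago2 KO cells were higher there. All 6 members at chr4:145510759-146539395 and all 6 at chr4:147132038-147848366 were higher in naive P-bodies, and 4 and 3 of them were lower in degron total RNA. At chr7:42579783-43618285 all 8 members were higher in naive P-bodies (median 2.76), and 3 of the 6 tested in MEFs were lower there. Clusters with GC-rich transcripts differed. At chr6:47819266-48086593, with the PGC-1 alpha repressor Zfp746, the median of 5 members in naive cells was -0.40, and at chr7:127244274-127885996, with Zfp688 and Zfp646, 3 of 9 were higher (median 0.13) and 6 of 9 were lower in MEFs. For comparison, 5.47% of all genes and 40.6% of the members were higher in Ago2 KO P-bodies. In MEFs 28.7% and 20.5% were lower, and in degron total RNA 2.07% and 11.5%. Members of a cluster are related in sequence and are not independent of each other.

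Similarity between members limits how exactly reads can be assigned. Of 168 annotated members 82 shared at least one 75-base window of their transcripts with another gene, 37 shared over 10% and 13 over 50%. The paper's methods give longer, paired reads for the P-body libraries, so these shares can overstate what could not be assigned. Zfp712, Zfp948 and Zfp622 shared none, Zfp937 shared 19.4% and Zfp932 32.6%, whereas Zfp960 shared 76.8%, Zfp991 80.0% and Zfp708 all. Zfp966 and Zfp967 had identical rounded counts in every P-body and cytoplasm library of naive, primed, MEF and day 3 cells. They enter the counts of members as separate genes but are not separate measurements there. Among the 122 tested members with at most 10% shared windows, 85 were higher and 2 lower in naive P-bodies (median 1.81). Of the 18 members lower in degron total RNA, 10 belonged to this group of 121 tested and 8 to the 35 tested with more sharing.

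The partners through which KRAB zinc finger proteins silence chromatin did not move as one with them. Of a list of 30 genes of this pathway, 29 were tested in naive cells, where 15 were higher in P-bodies and 4 lower (all genes: 22.5% and 15.5%). The 4 lower ones were Trim28 (-0.95 ± 0.10), the G9a gene Ehmt2 (-1.17), Morc2a (-0.47) and the histone chaperone gene Daxx (-0.33). Trim28, the common corepressor, had 499 and 529 CPM in naive P-bodies and 956 and 1026 CPM in cytoplasm, opposite in order to the KRAB genes whose products it serves. Setdb1, at -0.02, was not called in naive cells. In primed cells 12 of the list were higher and 10 lower (all genes: 26.6% and 24.3%), and in MEFs 6 and 16 (26.6% and 28.7%). In day 3 control cells edgeR called 0 higher and 0 lower (0.36% and 0.834%), with 4 and 11 at an unadjusted p under 0.05, and DESeq2 called 2 and 7. In day 3 Nudt21 cells the counts were 3 and 11 of 29 (9% and 12.8%). In Ago2 KO cells edgeR called 3 higher and 0 lower of 30 (5.47% and 1.05%), with 8 and 7 at an unadjusted p under 0.05, and DESeq2 called 4 and 3. On control polysomes 5 were higher and 20 lower (18.8% and 24.1%), with Trim28 at -1.89 and Setdb1 at -1.39, and after DDX6 depletion 7 and 20 (24% and 26.8%). In total RNA edgeR called 2 of the list lower and 0 higher in degron than in control cells (2.07% and 1.24%), with 7 and 0 at an unadjusted p under 0.05, and DESeq2 called 4 and 0.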

How the data were processed

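RNA of sorted P-bodies and of cytoplasm was sequenced, per the paper's methods, after oligo(dT) Smart-seq amplification, and polysome and total RNA from directional libraries. For P-body work the methods give HISAT2 with featureCounts for Smart-seq and salmon for random-primed snapTotal-seq libraries. The Ago2 KO table came from salmon, so its library type is not certain here. The authors deposited estimated counts per gene, not normalized and with replicates not pooled. Per their methods and the labels, the P-body table was aligned with HISAT2 to mm10 and counted with featureCounts on refGene exons, the polysome table came from salmon through the nf-core pipeline on mm10, and the Ago2 KO table from salmon with Ensembl identifiers (annotation release not given in the sources used here). How reads shared by several genes were divided is not stated. Deposited tables of the authors' fold changes and p-values were not used.

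Estimated counts were rounded, and genes reaching 10 reads in total across a comparison's libraries were tested on the whole table with edgeR 4.0.16 (TMM, quasi-likelihood, 2-sided, Benjamini-Hochberg adjusted p under 0.05; R 4.3.3, limma 3.58.1). All 14 comparisons were fitted separately, differences between cell types as interaction contrasts. DESeq2 1.42.0, other scalings and filters, a replicate block, joint fits and leaving out each library were alternatives. Fits were tested on simulated counts. The labels do not say that libraries came from separate cultures, while the paper describes its sequenced samples as biological replicates. The p-values measure the spread between libraries. No replicate pair held identical values.

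The longest GENCODE M21 transcript gave length and GC, and translated coding sequences gave fingers and the KRAB signature (searched in the first 200 codons of the 3 frames). Named genes were 17 members with a known role or given as marker, the 2 called members highest and lowest (mean of at least 5 CPM, groups apart) per fraction comparison, the 1 highest and 1 lowest per difference, and pathway genes. The members and lists were chosen with earlier results of these data known, so lists are given by counts beside those of all genes tested. Depth of 6769731 to 31185874 reads limits members with few reads, and counting intervals cover counting error only.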

Additional observations from a re-analysis of the deposited data

Results flagged for a closer look

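Enrichment in P-bodies differed between cell types, by edgeR's test of the difference itself, for 71 of 162 members between naive and primed ES cells (25.2% of all genes tested). Zfp760 had the largest difference towards naive cells (2.68 ± 0.38 on the log2 scale) and Zfp771 the largest towards primed cells (-1.26 ± 0.34) among called members with a mean of at least 5 CPM.

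Between naive ES cells and MEFs the difference was called for 114 of 161 members (41.3% of all genes tested). Zfp712 differed by 3.08 ± 0.31 and Zfp653 by -2.13 ± 0.41. The fitted difference of Zfp608, 5.45 ± 0.90, rests on 1 read in the naive cytoplasm libraries and depends on the prior count. In MEFs the same gene had 8.90 and 10.5 CPM in P-bodies and 14.6 and 13.3 CPM in cytoplasm. The nuclear RNA list and the lung epithelium markers, given above, were higher in the MEF P-body libraries than in the other MEF libraries, and their part in these differences was not tested.

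Between day 3 control cells and unreprogrammed MEFs 26 of 160 members differed, a share near the 14.6% of all genes tested, among them Zfp976 (1.91 ± 0.33) and Zfp688 (-1.12 ± 0.20). These 3 comparisons share naive or MEF libraries, so they are not independent of each other.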

How the results depend on the processing

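Of 168 recomputed counts of called members 134 stayed within 1.5 times the value given, and under each alternative other than leaving out a library 113 to 119 members were called in naive and 108 to 125 in primed cells. Day 3 control cells moved most: 6 calls became 49 with DESeq2, 38 with no filter, 28 with the replicate block and 61 with all groups of the table in one fit. Day 3 Nudt21 calls fell from 65 to 40 with all groups in one fit, and day 3 control minus MEF calls rose from 26 to 40 with no filter. The Nudt21 minus control difference gave 1 call with DESeq2 and 1 with no filter in place of 0. The labels do not say what a replicate number marks, and the same-numbered libraries did not all deviate together. With 3 pairs, 2 of 3 libraries correlated best with their own number in the control and degron fractions. Between the total RNA groups it was 0 of 3. With 2 pairs, same-numbered deviations correlated at 0.54 in Ago2 KO, 0.20 in day 3 Nudt21 and 0.17 in day 3 control cells. In primed, MEF and naive cells the values were 0.083, 0.0017 and -0.058. Per the paper, cytoplasm was an aliquot taken before sorting, and total RNA came from the polysome lysate. The main tests treated the fractions as unpaired. The replicate block gave 3 calls in place of 18 in degron against control total RNA. With all groups in one fit the Ago2 KO table gives no further fit, having 2 groups.

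Leaving out 1 library at a time gave 40 to 90 called members in MEFs, 2 to 94 in day 3 control, 18 to 88 in day 3 Nudt21, 0 to 52 in degron against control total RNA, 43 to 104 for naive minus primed, 0 to 65 for day 3 control minus MEF and 0 to 21 for Nudt21 minus control, where the median ran from -0.29 to 0.049. Values near 0 that were not called changed sign: Zfp706 ran from -0.00698 to 0.037 in naive cells (-0.0016 with edgeR's filterByExpr) and from -0.029 to 0.074 in primed cells, Zfp746 from -0.24 to 0.11 in primed cells, and Zfp712 from -0.040 to 0.16 on control polysomes, from -0.97 to 0.011 for Nudt21 minus control and from -0.033 to 0.19 for degron minus control. The causes were not tested.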
